A study of Mus musculus with 5 samples.

Results

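The CpGs around 7 genes for transcription factors of blood stem cells, Gata2, Runx1, Tal1, Lmo2, Meis1, Hlf and Mecom, were compared between LSK cells of targeted and wild-type mice. LSK cells (Lin- Sca1+ cKit+) are the bone marrow fraction that contains stem cells and multipotent progenitors. The assay was enhanced reduced representation bisulfite sequencing (ERRBS), which reads the methylation of CpGs in fragments cut at CCGG by MspI. CpGs were chosen by position alone, as every covered CpG between the ends of 1 mm9 window per gene, with its strands merged. The windows held 869 of the 1030056 autosomal CpGs covered in all 5 libraries. The Gata2 window of 20 kb on chromosome 6 held 184 of them (chr6:88140022-88159996, from the first to the last covered CpG). The Runx1 window of 232 kb held 215 (chr16:92599454-92825390), the Tal1 window of 23 kb held 110 (chr4:114725247-114747064) and the Lmo2 window of 30 kb held 42 (chr2:103797980-103811404). The Meis1 window of 144 kb held 102 (chr11:18778037-18920788), the Hlf window of 62 kb held 58 (chr11:90209100-90253654) and the Mecom window of 566 kb held 158 (chr3:29856240-30409343).

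There were 2 targeted and 3 wild-type libraries, all of C57BL/6 background. The titles of the targeted libraries read KO while their genotype label marks a heterozygote (+/-), so the number of altered alleles is not stated here. No age is given for these libraries, and the labels do not tie each library to an animal of its own. All p-values therefore measure the spread between libraries, and that spread may be technical. The sorted cells could not be checked against marker genes, because the tables hold no expression. Median coverage of a CpG in the windows was 79 reads in targeted library 1 and 104 in targeted library 2, beside 93, 105 and 103 reads in the 3 wild-type ones. Targeted library 1 stood apart from the other libraries across the genome. At the 68755 autosomal CpGs of 20 to 80% methylation it lay 6.51 points above the wild-type mean, and targeted library 2 lay 0.717 points above it. Each result below is therefore given with both targeted libraries, and the part that this genome-wide shift has in a window's result was not tested.

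These 7 proteins form much of the transcription factor circuit of blood stem cells. Gata2 is a zinc finger factor needed to make and keep stem cells. Runx1 is the DNA-binding subunit of core binding factor and is needed for blood cells to arise from endothelium. Its gene has a distal and a proximal promoter. Tal1 is a basic helix-loop-helix factor, and Lmo2 is a LIM-domain bridge that joins Tal1 and Gata factors without binding DNA itself. Meis1 is a homeodomain partner of Hox and Pbx proteins. Hlf is a bZIP factor of the PAR family used as a mark of stem cells, and Mecom, also known as Evi1, is a zinc finger factor of stem cells. CpG-rich promoters are generally free of methylation, also in many cells that do not use them, while the bodies of transcribed genes are generally methylated.

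RefSeq promoters (GRCm38.p6) were matched by symbol for 6 of the 7 members, and Lmo2 had no match. Because the tables are in mm9, a promoter was placed only where the spacing of at least 10 of its CpGs matched covered CpGs on its chromosome, with no covered CpG out of place and at least 2 times as many matches as the next best place. Of 10 promoters 4 were placed. They were both Gata2 promoters (19 and 20 CpGs matched, against 5 at the next best place for each), the second, proximal of the 2 Runx1 promoters (29 against 5) and the Hlf promoter (13 against 5). The Gata2 starts lay 4773 bases apart in the placement and in RefSeq. The 250 bases before each placed start are shown because levels near 0% were measured in them. Capitals mark the CpGs covered in all 5 libraries, each sequence runs 5′ to 3′ along the gene, Gata2 is on the plus strand, and Runx1 and Hlf are on the minus strand. The first, distal Runx1 promoter could not be placed and is shown for contrast, with its 2 CpGs in capitals. It has no CCGG in 300 bases, so MspI cannot cut inside it.
Gata2 first promoter: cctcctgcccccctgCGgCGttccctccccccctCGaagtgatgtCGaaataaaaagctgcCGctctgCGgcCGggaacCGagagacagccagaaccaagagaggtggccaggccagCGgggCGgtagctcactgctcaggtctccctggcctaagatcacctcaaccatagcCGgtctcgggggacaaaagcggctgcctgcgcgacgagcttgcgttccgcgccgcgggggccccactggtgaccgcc
Gata2 second promoter: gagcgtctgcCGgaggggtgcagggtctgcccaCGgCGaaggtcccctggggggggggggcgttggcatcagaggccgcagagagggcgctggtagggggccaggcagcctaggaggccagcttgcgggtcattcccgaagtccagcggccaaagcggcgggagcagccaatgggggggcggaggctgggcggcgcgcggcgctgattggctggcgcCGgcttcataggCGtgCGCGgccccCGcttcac
Runx1 second promoter: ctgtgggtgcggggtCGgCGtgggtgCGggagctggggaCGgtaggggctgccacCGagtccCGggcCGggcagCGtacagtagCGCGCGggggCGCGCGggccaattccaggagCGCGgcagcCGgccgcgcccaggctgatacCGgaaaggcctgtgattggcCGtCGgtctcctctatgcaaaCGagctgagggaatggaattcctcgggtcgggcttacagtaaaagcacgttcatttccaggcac
Hlf promoter: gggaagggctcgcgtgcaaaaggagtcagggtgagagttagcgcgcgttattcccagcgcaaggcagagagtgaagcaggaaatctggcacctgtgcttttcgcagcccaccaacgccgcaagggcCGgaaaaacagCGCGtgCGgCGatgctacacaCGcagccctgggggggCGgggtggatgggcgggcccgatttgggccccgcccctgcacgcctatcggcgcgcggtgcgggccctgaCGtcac
Runx1 first promoter: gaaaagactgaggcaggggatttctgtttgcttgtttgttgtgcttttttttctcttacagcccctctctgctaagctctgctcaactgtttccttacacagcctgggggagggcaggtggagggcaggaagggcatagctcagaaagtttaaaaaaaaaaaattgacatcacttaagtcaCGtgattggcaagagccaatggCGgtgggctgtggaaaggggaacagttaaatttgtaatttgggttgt

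The covered CpGs of the placed promoters were almost free of methylation in every library. Counting also the first 50 transcribed bases, the 65 covered CpGs of the 4 promoters had promoter means between 0.0679 and 0.439% over the 5 libraries. They were 11 of 32 and 13 of 29 CpGs of the Gata2 promoters, 29 of 35 of the Runx1 promoter and 12 of 30 of the Hlf promoter. The other CpGs were not covered in all libraries. At the first Gata2 promoter (11 CpGs, mm9 chr6:88143650-88143808) the mean level was 0.111 and 0.317% in targeted libraries 1 and 2, against 0.385, 0.843 and 0.539% in the wild-type libraries. At the second Gata2 promoter (13 CpGs, chr6:88148418-88148694) it was 0.0279 and 0.154% in the targeted libraries, against 0, 0.157 and 0% in the wild-type libraries. The groups overlapped at the second Gata2 promoter and not at the first, where all levels were under 1%.

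The Runx1 promoter with 29 covered CpGs (chr16:92697525-92697808) averaged 0.281 and 0.134% in the targeted libraries, against 0.119, 0.133 and 0.0193% in the wild-type libraries. At 18 of these 29 CpGs no library had a methylated read. The Hlf promoter (12 CpGs, chr11:90252183-90252354) averaged 0 and 0.0441% in the targeted libraries, against 0.427, 0 and 0% in the wild-type libraries, and 10 of its CpGs had no methylated read. The largest difference between group means at any of the 65 promoter CpGs was 2.49 points.

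3 motifs were searched in these promoters on both strands, and matches of different motifs may overlap. CCGG, the MspI site, is in 53.5% of the 31396 autosomal RefSeq promoters of the same length, the GC box GGGCGG in 36.0% and the cAMP response element TGACGTCA in 1.83%. The Hlf promoter held TGACGTCA with its first base 9 bases before the start, and the CpG inside it had 0% methylation in all 5 libraries at 34 or more reads each. The GC box of the first Gata2 promoter, 131 bases before the start, held 1 covered CpG with a mean of 1.80% and no more than 3.26% in any library. The Runx1 promoter held 4 MspI sites, each with a covered CpG, of which the highest mean was 0.819%. The 4 placed promoters contain 29 to 35 CpGs each, where the median autosomal promoter contains 7. Placement needed at least 10 matched CpGs, so a promoter with few CpGs could not be placed and this contrast was set by the rule. The member promoters that were not placed contain 2 to 22 CpGs.

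**Figure D1:**
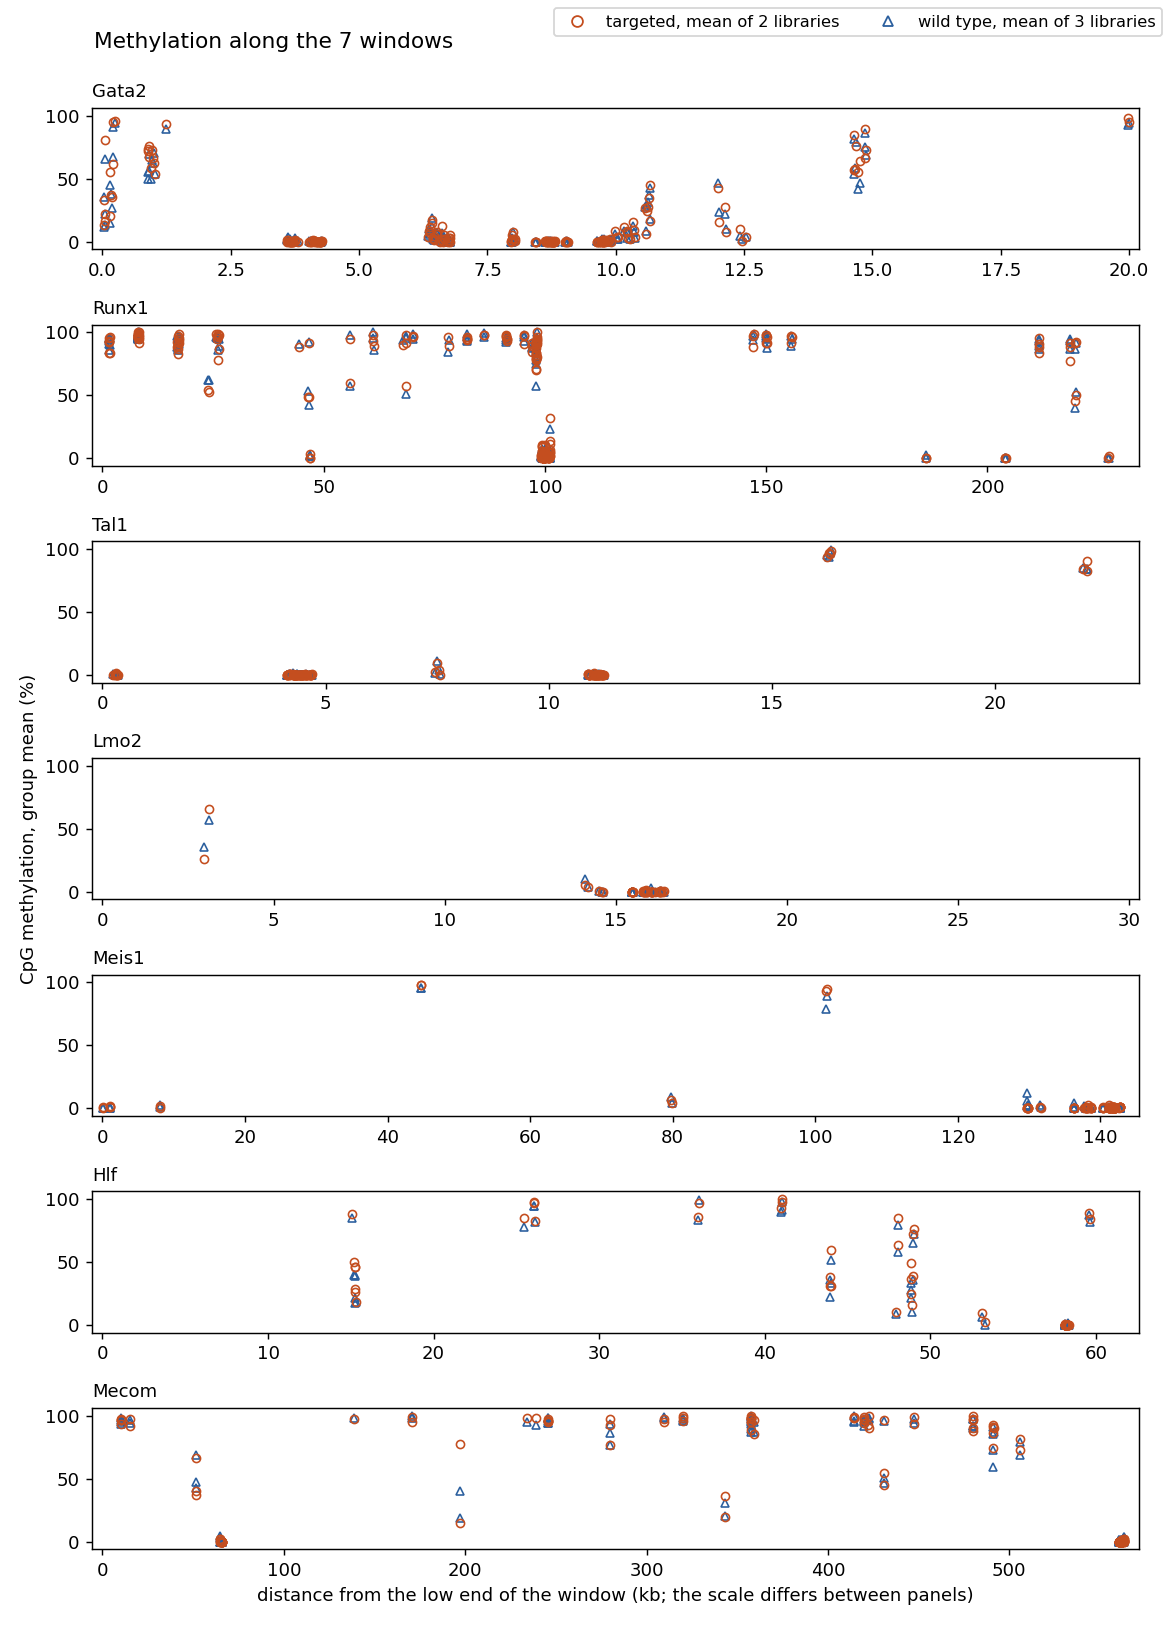
Methylation of every CpG covered in all 5 libraries along the 7 windows. The x axis is the distance from the low end of the window (kb) and the y axis the group mean (%), with circles for the 2 targeted libraries and triangles for the 3 wild-type libraries. Unmethylated runs such as the 137 CpGs of Gata2 and methylated stretches such as those of Runx1 and Mecom lie at the same places in both groups.

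The windows differed in how far unmethylated sequence extended. A stretch was defined as 5 or more consecutive covered CpGs, each under 20% in the mean of the 5 libraries, and 10 stretches were found. The Gata2 stretch ran from chr6:88143594-88150385, 6792 bp with 137 CpGs, so it held both placed promoters and began 291 bases before the first start. Its mean was 2.01 and 1.63% in the targeted libraries, against 1.27, 1.93 and 1.53% in the wild-type libraries. Within it the level was not flat. The 27 CpGs at chr6:88146349-88146781, between the promoters, averaged 5.67 and 3.84% in the targeted libraries, against 2.96, 5.53 and 3.66% in the wild-type libraries.

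Tal1 had a run of 103 CpGs over 10981 bp (chr4:114725247-114736227) that began at the low end of the window. It averaged 0.284 and 0.227% in the targeted libraries, against 0.303, 0.270 and 0.221% in the wild-type libraries. Its highest tile of 1000 bp (at least 3 CpGs) lay beyond the run, at chr4:114741001-114742000, with 97.0 and 95.8% in the targeted libraries, against 97.2, 94.0 and 96.1% in the wild-type libraries. No Tal1 CpG had a mean between 20 and 80%.

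Meis1 had a stretch of 89 CpGs over 13161 bp (chr11:18907628-18920788), which reached the last covered CpG of the window. The stretch included a gap of 4619 bp with no CpG covered in all libraries, so the level there is not known. It averaged 0.451 and 0.203% in the targeted libraries, against 0.437, 0.396 and 0.673% in the wild-type libraries. A second Meis1 stretch of 7 CpGs (chr11:18778037-18786142) lay at the other end of the window. Between them only 6 CpGs were covered in all libraries, 4 of which were over 80%.

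Lmo2 had the lowest mean level of the 7 windows, and 40 of its 42 CpGs formed a stretch of 2294 bp (chr2:103809111-103811404). It averaged 0.355 and 0.361% in the targeted libraries, against 0.489, 0.479 and 0.388% in the wild-type libraries. The targeted libraries were thus the lower ones, by under 0.2 points. The other 2 CpGs, before the stretch, had intermediate levels.

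The Hlf stretch held 26 CpGs over 5203 bp (chr11:90247152-90252354), of which 24 lay within 123 bases of the start and 2 lay beyond a gap of 4818 bp. The proximal Runx1 stretch held 78 CpGs over 1902 bp (chr16:92697202-92699103), from 1529 bases before the placed start to 372 after it. A second Runx1 stretch spanned 18109 bp (chr16:92784038-92802146) but rested on 5 CpGs with a gap of 17945 bp, so the level across most of it is not known. Mecom had a stretch of 72 CpGs (chr3:30406612-30409343) at the high end of its window and another of 18 CpGs (chr3:29910836-29912127) near the low end.

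Some edges of these stretches were sharp. In Runx1, 877 bp separated a CpG at 92.1% from the first stretch CpG, at 2.25%, downstream of the placed proximal start. In Hlf, 1231 bp separated the last stretch CpG, at 0%, from a CpG at 88.0% upstream of the start. For Tal1 the covered CpGs on either side of the edge were 5009 bp apart, so that edge is only loosely bounded.

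**Figure D2:**
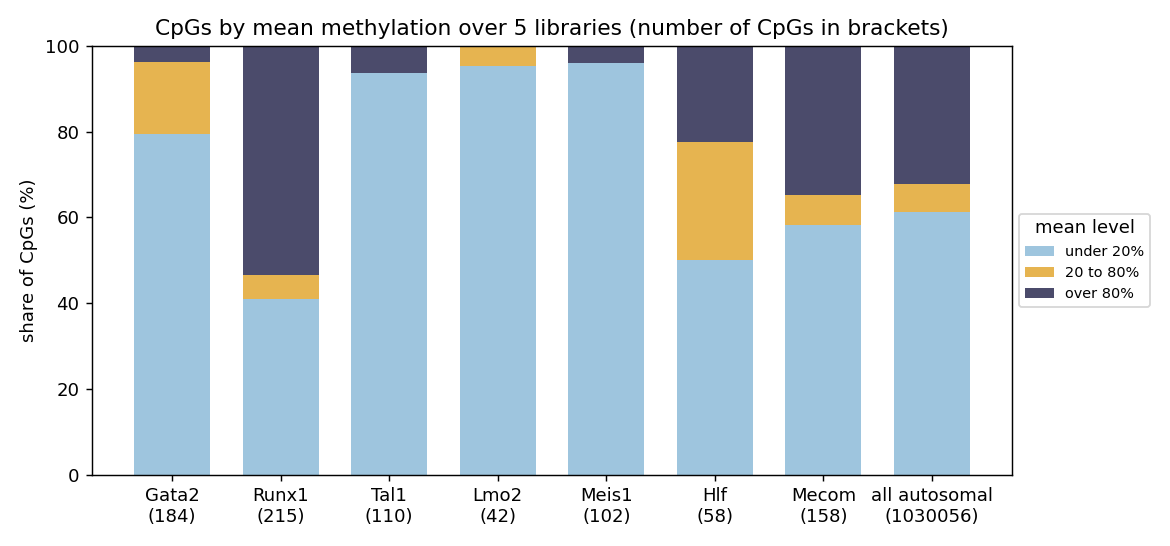
Share of CpGs (%, y axis) with a mean over the 5 libraries under 20%, of 20 to 80% and over 80%, for each window and for all autosomal CpGs (x axis, number of CpGs in brackets). Tal1, Lmo2 and Meis1 are 93.6 to 96.1% unmethylated, Runx1 is 53.5% methylated, and Hlf and Gata2 hold the largest shares of partly methylated CpGs.

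Together, 596 of the 869 CpGs (68.6%) were under 20%, 72 (8.29%) were partly methylated, at 20 to 80%, and 201 (23.1%) were over 80%. Across all autosomal CpGs these shares were 61.2, 6.67 and 32.1%. Unmethylated CpGs made up 93.6% of Tal1, 95.2% of Lmo2 and 96.1% of Meis1. Runx1 was the most methylated, with 115 of 215 CpGs over 80%, followed by Mecom with 55 of 158. The tile chr16:92606001-92607000 of Runx1, with 18 CpGs, had 96.3 and 96.9% in the targeted libraries, against 96.5, 96.1 and 97.3% in the wild-type libraries. Lmo2 had no CpG over 80%, and its highest tile, chr2:103809001-103810000, had 4.05 and 2.41% in the targeted libraries, against 4.62, 4.23 and 4% in the wild-type libraries.

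Partly methylated CpGs were concentrated in 2 windows, with 31 in Gata2 (16.8% of its CpGs) and 16 in Hlf (27.6%). Mecom had 11, Runx1 12, Lmo2 2, and Tal1 and Meis1 none. CpGs no more than 300 bp apart were joined into groups to describe them. In Gata2, 2 groups lay before the first start. The nearer one (10 CpGs, 2650 to 3005 bases before it) averaged 76.3 and 62.6% in the targeted libraries, against 59.6, 68.0 and 58.6% in the wild-type libraries. The farther one (12 CpGs, 3648 to 3863 bases before it) averaged 47.8 and 46.2% in the targeted libraries, against 43.7, 46.9 and 40.5% in the wild-type libraries. Another group lay 5985 to 6227 bases after the second start (9 CpGs) and averaged 72.5 and 65.7% in the targeted libraries, against 65.4, 65.3 and 66.1% in the wild-type libraries. The groups of libraries overlapped in the first 2, and in the last targeted library 2 lay within the wild-type range.

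In Hlf the partly methylated CpGs lay in groups between 9204 and 43131 bases after the placed start, interleaved with groups over 80%. In Mecom they lay in small groups, such as the pair at chr3:30276890-30276937. The first CpG of that pair read 42.0 and 47.3% in the targeted libraries, against 43.0, 52.1 and 57.3% in the wild-type libraries, at 103 or more reads each. The second differed in the other direction, with 54.7 and 53.6% in the targeted libraries, against 54.2, 47.4 and 38.6% in the wild-type libraries. LSK cells are a mixture of cell types, so a level of this size averages over cells and alleles that cannot be told apart here.

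The question of the series, whether the targeted gene affects DNA methylation in stem and progenitor cells, was put to each window in turn. No tile and no CpG of the 7 windows passed the test. With the quasi-likelihood test of edgeR on methylated and unmethylated reads, 0 of 74 tested tiles were called, where 15 of 90368 autosomal tiles (0.0166%) were called. Among single CpGs 0 of 610 were called, where 67 of 757413 autosomal CpGs (0.00885%) were called. A call needed an adjusted p (Benjamini-Hochberg) under 0.05 together with a difference of 10 points for a tile or 25 for a CpG. With shares this low in the background, 0 calls say little about the windows. The other 259 CpGs were fully methylated or fully unmethylated in every read and could not be tested. At an unadjusted p under 0.05 stood 8 member tiles (10.8%, against 6.32% of all tiles) and 14 member CpGs (2.30%, against 2.97% of all CpGs). The 8 tiles went in both directions, from -3.43 points (Mecom, chr3:30268001-30269000) to 3.46 points (Runx1, chr16:92699001-92700000). Some lay near 0% and differed by little, such as 0.200 points in Lmo2 (chr2:103810001-103811000). With limma 0 member tiles and 0 member CpGs were called, where 0 of 90368 tiles and 37 of 757413 CpGs were called genome-wide. At an unadjusted p under 0.05 limma had 6 member tiles and 24 member CpGs. The genome-wide share at that limma p was not computed, so these 2 counts cannot be read as many or few.

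**Figure D3:**
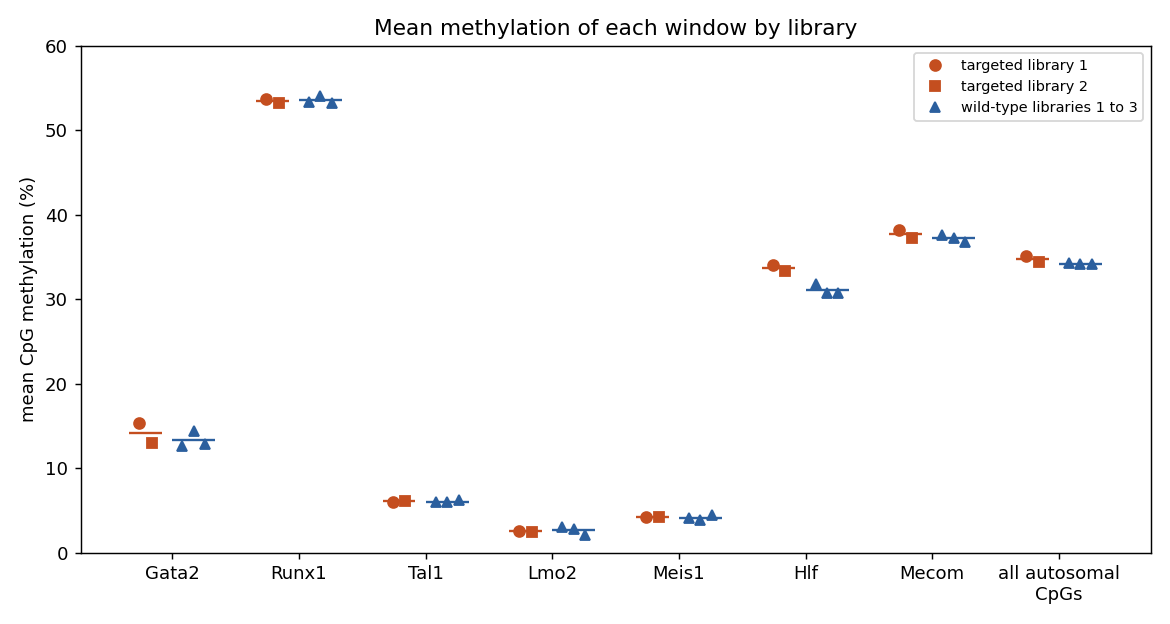
Mean methylation (%, y axis) of the CpGs covered in all 5 libraries, for each window and for all autosomal CpGs (x axis). Points are libraries, targeted on the left and wild type on the right, and lines are group means. The groups are apart in Hlf, 33.3 to 34.1% against 30.7 to 31.8%, and among all autosomal CpGs, and overlap in the other 6 windows.

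For each window the library means were set against each other in an exact two-sided permutation test. The 10 ways to assign 2 of 5 libraries allow no p under 0.1. The Hlf window averaged 34.1 and 33.3% in the targeted libraries, against 31.8, 30.7 and 30.7% in the wild-type libraries. It was the window whose groups did not overlap, at 33.7 ± 0.565% in targeted libraries (SD, n = 2) and 31.1 ± 0.619% in wild-type libraries (SD, n = 3), a difference of 2.61 points (exact permutation p = 0.1, the smallest this design allows). Over all autosomal CpGs the difference was 0.551 points, also without overlap (exact permutation p = 0.1).

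The other windows gave smaller differences. Gata2 averaged 15.3 and 13.0% in the targeted libraries, against 12.6, 14.4 and 12.8% in the wild-type libraries (difference 0.899 points, exact permutation p = 0.5). The Gata2 difference was -0.255 points without targeted library 1 and 2.10 points with reads weighted equally. Runx1 averaged 53.7 and 53.2% in the targeted libraries, against 53.4, 54.0 and 53.3% in the wild-type libraries (-0.108 points, exact permutation p = 0.8). When reads rather than CpGs were weighted equally, the Runx1 difference was 3.40 points, the opposite direction. In that weighting, here and below, the coverage of each CpG in each library enters the value. It is therefore not a difference in level alone. Mecom averaged 38.2 and 37.3% in the targeted libraries, against 37.6, 37.3 and 36.8% in the wild-type libraries (0.507 points, exact permutation p = 0.5). The Mecom difference was 0.0336 points without targeted library 1 and 3.48 points with reads weighted equally.

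Differences were smallest in Tal1, Lmo2 and Meis1 when each CpG weighed the same. Tal1 averaged 5.97 and 6.17% in the targeted libraries, against 5.98, 5.98 and 6.18% in the wild-type libraries (0.0252 points, exact permutation p = 1), and its difference was 1.85 points with reads weighted equally. Its CpGs under 20% differed by -0.00967 points and those over 80% by 0.538 points. Lmo2 averaged 2.58 and 2.48% in the targeted libraries, against 3.02, 2.77 and 2.11% in the wild-type libraries (-0.106 points, exact permutation p = 0.8). Meis1 averaged 4.26 and 4.17% in the targeted libraries, against 4.09, 3.85 and 4.49% in the wild-type libraries (0.0721 points, exact permutation p = 0.8). The wild-type range held both targeted libraries for Lmo2 and Meis1 and one of them for Tal1, and each of these signs turned under at least 1 alternative.

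Hlf was looked at further because its groups did not overlap. It is 1 of 7 windows, and an exact permutation p of 0.1 in 1 of 7 can arise with no difference between the groups. Of its 42 tested CpGs, 35 (83.3%) had the higher mean in the targeted libraries, where 55.5% of all tested autosomal CpGs did. That count partly restates the window mean for which Hlf was picked. The shares also rest on unlike CpGs, since 27.6% of covered Hlf CpGs were partly methylated, against 6.67% of all autosomal ones. The 12 promoter CpGs differed by -0.120 points. Its 16 partly methylated CpGs averaged 45.8 and 43.9% in the targeted libraries, against 39.8, 37.9 and 37.2% in the wild-type libraries, a difference of 6.50 points. Its 13 CpGs over 80% averaged 91.1 and 90.5% in the targeted libraries, against 88.6, 88.5 and 86.6% in the wild-type libraries (2.91 points). Its 29 CpGs under 20% averaged 2.09 and 1.83% in the targeted libraries, against 1.94, 0.916 and 2.06% in the wild-type libraries (0.319 points), and these groups overlapped. These classes make up the window mean that singled Hlf out, so they describe that difference and were given no test of their own. Classes were also separated in other windows, in both directions. In Runx1 the 88 CpGs under 20% were higher in the targeted libraries (0.491 points) and the 115 over 80% were lower (-0.686 points). The 4 Meis1 CpGs over 80% averaged 94.6 and 97.0% in the targeted libraries, against 89.9, 86.3 and 93.2% in the wild-type libraries (6.00 points). The CpGs under 20% were lower in the targeted libraries in Mecom (-0.226 points) and Lmo2 (-0.0936 points).

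Both targeted libraries lay above the wild-type ones in Hlf. At the 16 partly methylated CpGs the libraries lay 7.45 and 5.56 points above the wild-type mean, while over all autosomal CpGs of that class they lay 6.51 and 0.717 points above it. Without targeted library 1 the window difference was 2.21 points. With reads rather than CpGs weighted equally it was 7.84 points, a value that coverage also enters. That the Hlf difference exceeds that of other windows was not tested.

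**Figure D4:**
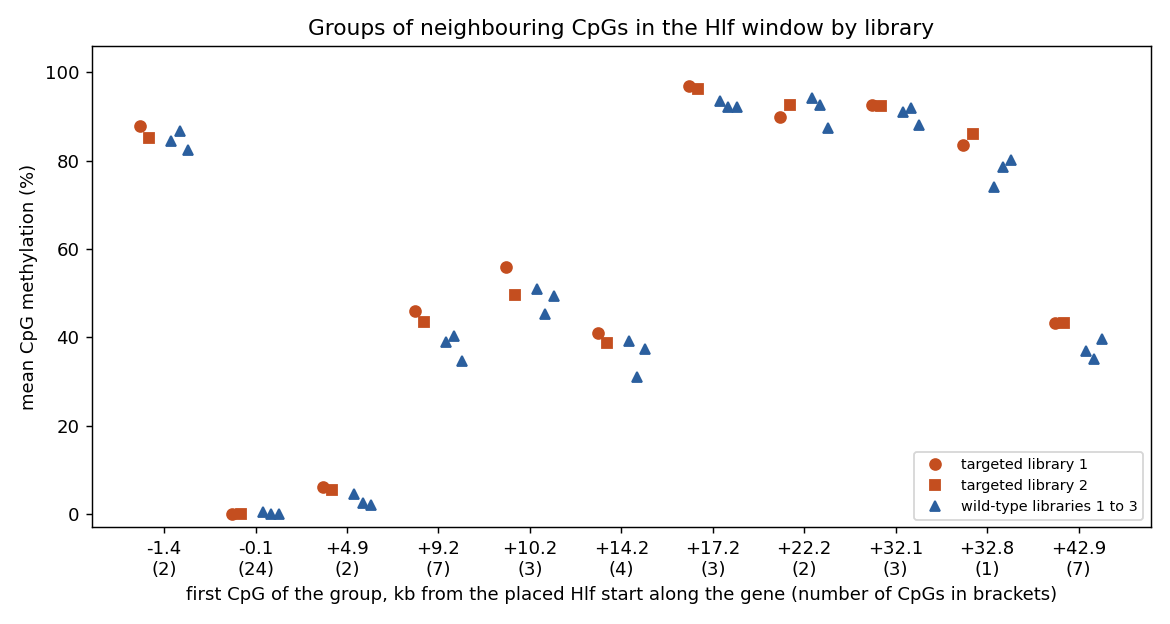
Mean methylation (%, y axis) of groups of neighbouring CpGs in the Hlf window, ordered by distance from the placed start along the gene (kb, x axis; number of CpGs in brackets). Points are libraries, targeted on the left of each group and wild type on the right. The promoter group of 24 CpGs is near 0% in every library. Of the 11 groups, 9 have the higher mean in the targeted libraries, as do 8 of 10 groups in Gata2 but 11 of 32 in Runx1.

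Groups of neighbouring CpGs with the higher mean in the targeted libraries were 8 of 10 in Gata2, 11 of 32 in Runx1 and 4 of 6 in Tal1. They were 1 of 4 in Lmo2, 9 of 14 in Meis1 and 16 of 29 in Mecom. The share over all autosomal groups was not computed. Along Hlf, 9 of 11 groups had the higher mean in the targeted libraries, a count that partly restates its window mean. The 7 CpGs 42940 to 43131 bases after the start averaged 43.4 and 43.2% in the targeted libraries, against 36.8, 35.2 and 39.6% in the wild-type libraries. The 7 CpGs 9204 to 9390 bases after it averaged 46.0 and 43.5% in the targeted libraries, against 38.9, 40.2 and 34.7% in the wild-type libraries. In both, the targeted libraries lay above every wild-type library. The 4 CpGs 14209 to 14294 bases after the start overlapped, with 40.9 and 38.8% in the targeted libraries, against 39.1, 31.0 and 37.3% in the wild-type libraries. The methylated group 17201 to 17236 bases after the start (3 CpGs) read 96.9 and 96.4% in the targeted libraries, against 93.4, 92.2 and 92.1% in the wild-type libraries.

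The Hlf tile with the largest difference, chr11:90209001-90210000, had 7 CpGs and at least 1199 CpG reads per library. It read 42.7 and 42.2% in the targeted libraries, against 33.6, 32.3 and 37.5% in the wild-type libraries, a difference of 7.99 points. All targeted values were higher, and the adjusted p over all tiles was 0.793. The Hlf CpG with the largest difference, chr11:90242859, read 41.7 and 57.1% in the targeted libraries, against 38.5, 27.3 and 33.3% in the wild-type libraries (adjusted p = 0.876). It was covered by 22 to 48 reads, and its 16.4 points compare with 10.9 points of SD between the targeted libraries. Without targeted library 2 the difference was 8.64 points.

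**Figure D5:**
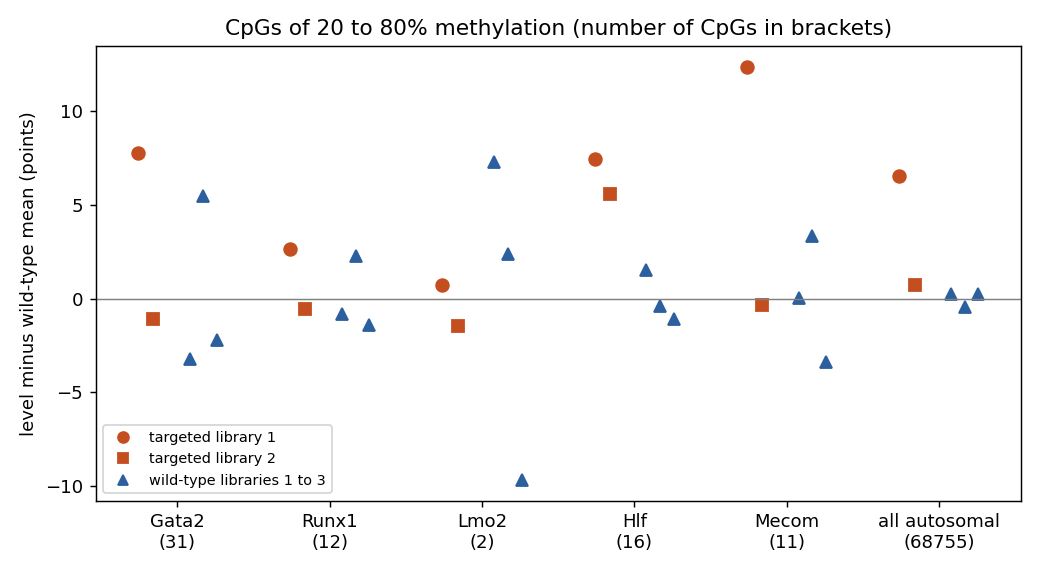
Level of the CpGs of 20 to 80% methylation in each library minus the wild-type mean (percentage points, y axis), for the windows that have such CpGs and for all autosomal CpGs (x axis, number of CpGs in brackets). Targeted library 1 lies above 0 throughout, at 6.51 points among all autosomal CpGs, and targeted library 2 lies well above 0 in Hlf, at 5.56 points.

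In Gata2, Mecom and Runx1 the partly methylated CpGs of targeted library 1 averaged above every wild-type library, and those of targeted library 2 did not. The 31 of Gata2 averaged 56.6 and 47.8% in the targeted libraries, against 45.6, 54.3 and 46.6% in the wild-type libraries. The 11 of Mecom averaged 67.3 and 54.6% in the targeted libraries, against 55.0, 58.3 and 51.6% in the wild-type libraries. The 12 of Runx1 averaged 57.2 and 54.0% in the targeted libraries, against 53.7, 56.8 and 53.1% in the wild-type libraries. Targeted library 2 lay within the wild-type range in these 3 windows, as both targeted libraries did at the 2 such CpGs of Lmo2. Over all 72 partly methylated CpGs the difference was 3.97 points (exact permutation p = 0.4), with targeted library 1 at 7.34 points above the wild-type mean and targeted library 2 at 0.596, beside 6.51 and 0.717 points over the genome.

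The lowest adjusted p of any tile was that of a Meis1 tile at the edge of its long stretch. The tile chr11:18907001-18908000 (7 CpGs) had 0 methylated of 169 and 0 of 292 CpG reads (reads summed over its CpGs) in the targeted libraries, which allow a level of up to 1.78 and 1.03%. The wild-type libraries had 2.84, 2.40 and 4.94%, at 141, 167 and 324 CpG reads. The targeted libraries were lower, by 3.39 points, with an adjusted p of 0.557, which ran from 0.365 to 1 over the alternatives. It was also the Meis1 tile with the highest mean, at 2.03%. Limits of this kind cover counting error only, because the reads carry no molecular identifiers. They also treat CpG reads as separate, although 1 read of 50 bp can cover several CpGs, so the 2 limits here are too low. The fewest reads at any of the 7 CpGs in any library were 13.

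The largest difference at a single CpG of the windows was at chr3:30043076 in Mecom. It read 82.4 and 72.7% in the targeted libraries, against 33.3, 45.5 and 42.9% in the wild-type libraries, a difference of 37.0 points with an adjusted p of 0.876. Coverage was 17 and 11 reads in the targeted libraries, against 12, 11 and 14 reads in wild type. The 95% Wilson interval of targeted library 2 ran from 43.4 to 90.3% and that of wild-type library 2 from 21.3 to 72.0%, so the intervals overlapped although the levels did not. The coverage minimum of 20 reads removed this CpG.

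In the remaining windows the CpG with the largest difference was higher in the targeted libraries for Gata2, Runx1, Tal1 and Meis1 and lower for Lmo2, each with an adjusted p of 0.876. At chr6:88140880 of Gata2, 3005 bases before the first start, levels were 70.8 and 72.2% in the targeted libraries, against 50.0, 55.1 and 45.0% in the wild-type libraries. At chr16:92695932 of Runx1, 1642 bases after the placed proximal start, they were 71.9 and 69.4% in the targeted libraries, against 58.3, 57.6 and 57.3% in the wild-type libraries. Both CpGs were separated between the groups, at 20 to 49 reads for Gata2 and 99 to 124 for Runx1.

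The Meis1 CpG, chr11:18879566, read 92.3 and 93.8% in the targeted libraries, against 73.3, 68.8 and 93.8% in the wild-type libraries, so wild-type library 3 matched the targeted libraries. The Lmo2 CpG, chr2:103797980, read 25 and 26.9% in the targeted libraries, against 42.1, 40 and 25% in the wild-type libraries, with overlap. The Tal1 CpG, chr4:114747051, differed by 6.03 points, with 93.3 and 87.5% in the targeted libraries, against 81.2, 83.3 and 88.6% in the wild-type libraries. Leaving out 1 library moved the Tal1 difference to 3.12 points (targeted library 1), the Lmo2 difference to -15.1 points (wild-type library 3) and the Meis1 difference to 9.49 or 22.0 points (wild-type library 2 or 3).

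No tile difference in these windows passed the test either. The largest in Runx1 was at chr16:92644001-92645000, with 32.9 and 35.4% in the targeted libraries, against 29.6, 30.7 and 23.1% in the wild-type libraries (6.36 points, adjusted p = 0.803), and 4.0 points without wild-type library 3. In Gata2 it was at chr6:88154001-88155000, with 69.7 and 61.5% in the targeted libraries, against 59.6, 61.8 and 61.6% in the wild-type libraries (4.60 points, adjusted p = 0.854), and the difference was 0.530 points without targeted library 1 and 8.68 points without targeted library 2. In Mecom it was at chr3:30126001-30127000, with 92.5 and 88.6% in the targeted libraries, against 84.9, 85.3 and 86.6% in the wild-type libraries (5.0 points, adjusted p = 0.793), and 3.03 points without targeted library 1. The largest tile differences of Lmo2, at chr2:103809001-103810000, and of Tal1, at chr4:114732001-114733000, were -1.05 and -0.652 points. Without targeted library 1 they were -1.87 and -1.95 points, and without targeted library 2 they were -0.230 and 0.646 points.

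The lowest tile of each window had a mean between 0.0950 and 0.178%. Those of Gata2 (chr6:88144001-88145000), Runx1 (chr16:92802001-92803000), Lmo2 (chr2:103810001-103811000), Meis1 (chr11:18915001-18916000) and Hlf (chr11:90252001-90253000) differed between the groups by no more than 0.200 points. For Tal1 the lowest tile was chr4:114736001-114737000 (24 CpGs), with 0.0463 and 0.0671% in the targeted libraries, against 0.0708, 0.254 and 0.0854% in the wild-type libraries. For Mecom it was chr3:29911001-29912000 (7 CpGs), with 0.426 and 0.0864% in the targeted libraries, against 0% in all 3 wild-type libraries. The highest Mecom tile, chr3:30260001-30261000 (3 CpGs), had 97.4 and 99.5% in the targeted libraries, against 96.7, 96.3 and 93.5% in the wild-type libraries. The highest Gata2 tile, chr6:88141001-88142000 (3 CpGs), had 73.5 and 51.6% in the targeted libraries, against 58.7, 76.6 and 62.6% in the wild-type libraries, so the libraries differed as much within a group as between groups. The highest Hlf tile, chr11:90220001-90221000 (3 CpGs), had 92.4 and 93.9% in the targeted libraries, against 91.6, 92.3 and 88.9% in the wild-type libraries.

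Few CpGs were covered in 1 group alone. Of the 1066 CpGs of the windows seen in any library, 887 were covered in all wild-type libraries, and 2 of these, both in Tal1, were absent from both targeted libraries. Where both strands of a CpG were covered, the median difference between them was between 0 and 0.518 points in the 5 libraries, and 6 to 9 CpGs per library differed by over 20 points.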

How the data were processed

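Methylation was measured by ERRBS in LSK cells (2 targeted and 3 wild-type libraries, grouped by title). Per the labels' protocols, DNA was cut with MspI, size-selected to 150 to 400 bp, bisulfite-converted and read as 50 bp single ends. Per the submitters' processing notes, the authors used Bismark and the mm9 (NCBIM37) build, with no version named. The deposited tables list, per the file headers, the coverage count of each CpG cytosine by strand, at least 10 reads, and the percent of reads with C and with T. The targeted gene is not reported here.

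Methylated and unmethylated reads were recovered from the deposited coverage and percent (within 0.01 of a whole read for 99.97% of entries). The highest 0.1% of coverage was left out per library and strands were merged. Total coverage was 122015958 to 151634492 per library. Wilson intervals (95%) and limits of a count of 0 (3 reads) cover counting error only. Single CpGs, and tiles of 1000 bp holding 3 or more CpGs, were fitted on the whole autosomal table with edgeR 4.0.16 (R 4.3.3) and adjusted over it; limma 3.58.1 on log2 ratios, other coverage limits, tile sizes, averages, strands and each library left out were alternatives. Methods were tested on simulated data. The simulated shifts were far larger than any tile difference in the windows, so the detection of small differences was not tested. Figures were drawn with matplotlib 3.10.9. The members, windows and lists were chosen with earlier results of these data known, and the promoter placement and the groups of CpGs within 300 bp were chosen after the data were seen. All members are named, and in each window the lowest, highest and most different tile and the most different CpG; some groups and CpGs were named after their values were seen. Other stem cell factors, gene parts such as exons, and an mm9 annotation were not used here.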

Additional observations from a re-analysis of the deposited data

How the results depend on the processing

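The counts of called tiles and CpGs in the windows were 0 under every alternative run: coverage of at least 20 reads, no upper limit on coverage, each library left out, limma, no minimum difference and, for tiles, 500 bp, 2000 bp and at least 5 CpGs. With the replicate number as a replicate block the counts were 0 and 0 in the windows, and 23 tiles and 60 CpGs genome-wide. The labels do not pair the numbers, and the deviations of same-numbered libraries at partly methylated CpGs were uncorrelated (r = -0.0149 and -0.00340). Where no group was left with 1 library, genome-wide calls at the stated minimum differences ran from 0 to 23 tiles and from 37 to 67 CpGs. With so few calls, 0 in the windows says little. The Hlf and Mecom window differences kept their sign under all alternatives. Hlf ran from 2.21 to 7.84 points and Mecom from 0.0336 to 3.48 points. Both upper values came with reads weighted equally, where coverage enters the value. Mecom gave 3.12 points on each library's own CpGs and 0.0852 at coverage of at least 20 reads. Small window differences changed sign. With each library left out in turn, Gata2 ran from -0.255 to 2.05 points, Runx1 from -0.345 to 0.129, Tal1 from -0.0741 to 0.124, Lmo2 from -0.367 to 0.0854 and Meis1 from -0.0733 to 0.247. Weighting by reads gave 3.40 for Runx1, 1.85 for Tal1 and 0.0274 for Lmo2. Each library's own CpGs gave 0.614 for Runx1 and -1.02 for Meis1. The plus strand alone gave 0.199 for Runx1, -0.171 for Tal1 and -0.156 for Meis1, and coverage of at least 20 reads gave 0.132 for Lmo2. The most different Tal1 tile ran from -1.95 to 0.646 points with each library left out. The share of partly methylated CpGs was 7.56% with coverage of at least 20 reads, an alternative added after the data were seen, against 8.29%. There were 12 stretches with a limit of 10%, against 10. The cause of these changes was not tested. With 2 targeted libraries the window test cannot give a p under 0.1, and levels under 1% rest on few methylated reads.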
